A study of Mus musculus with 6 samples.

Results

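The miR-199 and miR-214 miRNAs were measured in primary mouse peritubular myoid cells, the contractile mesenchymal cells that wrap the seminiferous tubules of the testis. Every row of the deposited count table whose name held miR-199a, miR-199b or miR-214 was taken, whichever arm of the hairpin it came from. This gave 5 rows of the 1573 rows of known mouse miRNAs: mmu-miR-214-3p, mmu-miR-214-5p, mmu-miR-199a-5p, mmu-miR-199b-5p (written without the mouse prefix below) and a joint row for miR-199a-3p and miR-199b-3p, whose sequences are identical. The cells came from C57BL/6J mice and were exposed to 50 nM endothelin-1 (ET1), a vasoactive peptide, for 5 min (3 libraries) or were left untreated (3 libraries). Both groups were primary cultures grown with serum, of the same strain, and the design addresses which small RNAs differ after ET1. Whether each library had its own culture or animal is not stated in the labels. The p-values therefore speak of the spread among these 6 libraries, part or all of which may be technical.

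A miRNA is cut from a hairpin in a longer transcript, and either arm of the hairpin can be loaded into Argonaute, where bases 2 to 8, the seed, select target mRNAs. miR-199a and miR-214 are known as miRNAs of mesenchyme and connective tissue: they are transcribed together from Dnm3os, a non-coding RNA needed for normal skeletal growth in mice, under control of the mesenchymal factor Twist1. miR-214-3p is known to target Ezh2, and miR-199a-5p is known to target Cav1 in fibroblasts. The mature sequences are shown because each arm was measured as its own row. They are from RefSeq (GRCm38.p6), 4 of the 5 rows matched, and capitals mark the seed.

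miR-214-3p: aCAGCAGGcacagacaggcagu
miR-214-5p: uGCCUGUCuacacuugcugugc
miR-199a-5p: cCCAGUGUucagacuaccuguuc
miR-199a-3p and miR-199b-3p: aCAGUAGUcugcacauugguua

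The 4 seeds all differ, so each of these arms has its own seed group. In the RefSeq set, miR-761 shares the seed of miR-214-3p, but it has no row among the known miRNAs of the deposited count table. The Mir214 hairpin lies at chr1:162223368-162223477 on the plus strand and the Mir199a-2 hairpin upstream of it at chr1:162217814-162217923 on the same strand, with 5444 bases between them. Both overlap an exon of Dnm3os (chr1:162217623-162225550) and lie, antisense, in an intron of Dnm3, by GENCODE M21. The hairpins are shown 5′ to 3′ with both mature arms in capitals, to place the arms that are compared below.

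Mir214: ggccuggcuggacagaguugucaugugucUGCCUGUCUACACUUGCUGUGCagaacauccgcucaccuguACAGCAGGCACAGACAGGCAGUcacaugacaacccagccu
Mir199a-2: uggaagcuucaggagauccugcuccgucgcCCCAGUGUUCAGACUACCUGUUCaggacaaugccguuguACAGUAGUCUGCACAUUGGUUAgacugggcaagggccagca

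The same mature miR-199a-5p and miR-199a-3p are also encoded by Mir199a-1 (chr9:21496495-21496564, minus strand), antisense in an intron of Dnm2. Mir199b (chr2:32318460-32318569, plus strand) lies antisense in an intron of Dnm1 and gives the same 3p sequence. The miR-199 rows therefore sum over several loci, whereas miR-214 has 1 hairpin here.

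The libraries held 18127265 to 19493731 tags with ET1 and 18972157 to 20895432 untreated. Known miRNA tags made up 22.6% to 25.5% of the ET1 libraries and 30.1% to 45.6% of the untreated libraries, and rRNA fragments made up 7.12% to 11.02% of the ET1 and 3.22% to 5.63% of the untreated libraries. Levels below are CPM, tag counts scaled to the known miRNA tags of a library and adjusted by TMM, whose factors were 1.08 to 1.18 in ET1 and 0.816 to 0.955 in untreated libraries. A tag is a whole miRNA, so CPM carries no length term, and in RNA from a bulk culture fewer cells of a type and less RNA per cell cannot be told apart. Among 616 known miRNAs tested with edgeR's quasi-likelihood test, 1.79% passed a Benjamini-Hochberg adjusted p of 0.05, 1.3% higher in ET1 and 0.487% lower (8 and 3 miRNAs; 38 and 3 by library size alone, 22 and 15 without a filter, 0 and 2 without ET1 library 3). None of the 4 miR-199 and miR-214 rows tested was among them; 1 of the 4, miR-214-3p, had an unadjusted edgeR p under 0.05, as did 18.3% of all miRNAs tested.

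miR-214-3p was the most abundant of these miRNAs, the 32nd of the 616 by mean level, and its level was 2.05-fold higher in the ET1 libraries than in the untreated libraries, without passing the test. It stood at 8289, 6627 and 9068 CPM in the ET1 libraries, against 2781, 3291 and 5649 CPM in the untreated libraries. All 3 ET1 libraries lay above every untreated library, and untreated library 3 came closest to the ET1 range. The means were 7995 ± 1247 CPM with ET1 and 3907 ± 1530 CPM untreated (SD, n = 3 each), a log2 fold change of 1.03 (SE 0.35; edgeR adjusted p = 0.11). Without untreated library 3 the log2 fold change was 1.41 and passed (edgeR adjusted p = 0.028), in a fit where the median of all tested miRNAs stood at 0.18. Without any other library it was 0.84 to 1.14 and did not pass (edgeR adjusted p = 0.17 to 0.33).

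The size of the miR-214-3p difference followed the scaling. By library size alone it passed (log2 fold change 1.38, edgeR adjusted p = 0.045), in a fit where the median of all tested miRNAs stood at 0.37. With all rows of the table fitted together it was 0.62, beside a median of −0.46. With the share of known miRNA tags in a library as a covariate it was 0.43 (edgeR adjusted p = 0.90), and that share did not overlap between the groups. In the authors' deposited per-library RPM, which is scaled to the tags of all rows, miR-214-3p stood at 2430, 1612 and 2650 in ET1 and at 942, 1224 and 1626 in untreated libraries. On that scale ET1 library 2 lay just below untreated library 3, so the groups overlapped.

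miR-214-5p, the partner arm of the same hairpin, was far less abundant and had nearly equal means in both groups. Its levels were 297, 193 and 318 CPM in the ET1 libraries and 239, 324 and 243 CPM in the untreated libraries. The groups overlapped, with ET1 library 2 the lowest and untreated library 2 the highest of the 6. The means were 269.6 ± 67.1 CPM with ET1 and 268.5 ± 48.2 CPM untreated (SD, n = 3 each), a log2 fold change of 0.0063 (SE 0.38; edgeR adjusted p = 0.99), a value whose sign changed with the scaling.

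**Figure D1:**
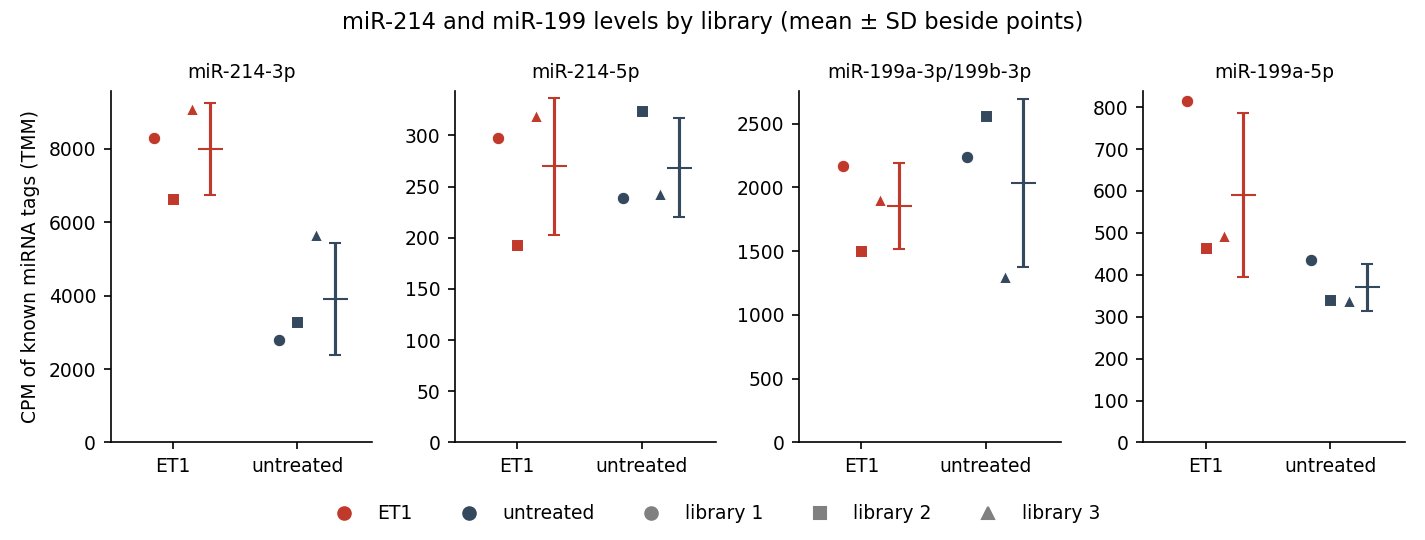
Level of each tested miR-214 and miR-199 row in the 6 libraries, in TMM-scaled CPM (y axis from 0 in each panel); points are libraries, bars beside them the mean ± SD of 3. miR-214-3p and miR-199a-5p have all 3 ET1 points above the untreated points, while miR-214-5p and the joint miR-199 3p row overlap.

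In TMM-scaled CPM, miR-199a-5p was higher in every ET1 library than in any untreated library, by a smaller margin than miR-214-3p. It did not pass the test. It stood at 814.5, 463 and 492 CPM in ET1 libraries, against 434, 339 and 336 CPM in untreated libraries. The lowest ET1 value, in library 2, lay close to the highest untreated value, in library 1. The log2 fold change was 0.67 (SE 0.37; edgeR adjusted p = 0.37), with means of 590 ± 195 CPM for ET1 and 370 ± 55.9 CPM for untreated cells (SD, n = 3 each), and it was 0.34 without ET1 library 1. By library size alone it was 1.05, and with all rows fitted together 0.16. In the authors' deposited RPM, miR-199a-5p stood at 239, 113 and 144 in ET1 and at 147, 126 and 96.9 in untreated libraries. The groups overlapped there, with ET1 libraries 2 and 3 below untreated library 1.

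The joint row of miR-199a-3p and miR-199b-3p, the more abundant arm of miR-199, was at about the same level in both groups. It stood at 2171, 1501 and 1898 CPM in ET1 libraries and at 2241, 2559 and 1297 CPM in untreated libraries. The untreated values enclosed the ET1 values, with untreated library 3 the lowest of all 6. The log2 fold change was −0.13 (SE 0.35; edgeR adjusted p = 0.88), and it was 0.27 by library size alone, below the median of all miRNAs in that fit, and −0.69 with all rows fitted together.

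miR-199b-5p, the only 5p row specific to Mir199b, was near the limit of detection and did not pass the expression filter. It had 10, 6 and 5 tags in the ET1 libraries and 3, 7 and 8 tags in the untreated libraries. Of all miR-199 5p tags it made up between 0.178% (exact 95% interval 0.0579% to 0.415%) in ET1 library 3 and 0.273% (0.1003% to 0.594%) in ET1 library 2, against 0.0973% (0.0201% to 0.284%) in untreated library 1 and 0.397% (0.172% to 0.782%) in untreated library 3; intervals cover counting error only. The 5p tags of miR-199 were thus almost all assigned to miR-199a. The row of the Rfam family of miR-199 precursors, which is not a mature miRNA, held 77, 22 and 75 tags with ET1 and 39, 152 and 43 tags untreated, and that of miR-214 precursors held 2 tags in ET1 library 3 and 0 in the other libraries.

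Of the 4 rows tested, miR-214-3p and miR-199a-5p were higher in ET1 without overlap in TMM-scaled CPM, as were 12.5% of the 616 miRNAs. In the authors' deposited RPM the groups overlapped for both. By library size alone the same 2 rows did not overlap, against 20.9% of all miRNAs. The plot of all tested miRNAs places miR-214-3p 76th from the top by log2 fold change and 57th by p.

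**Figure D2:**
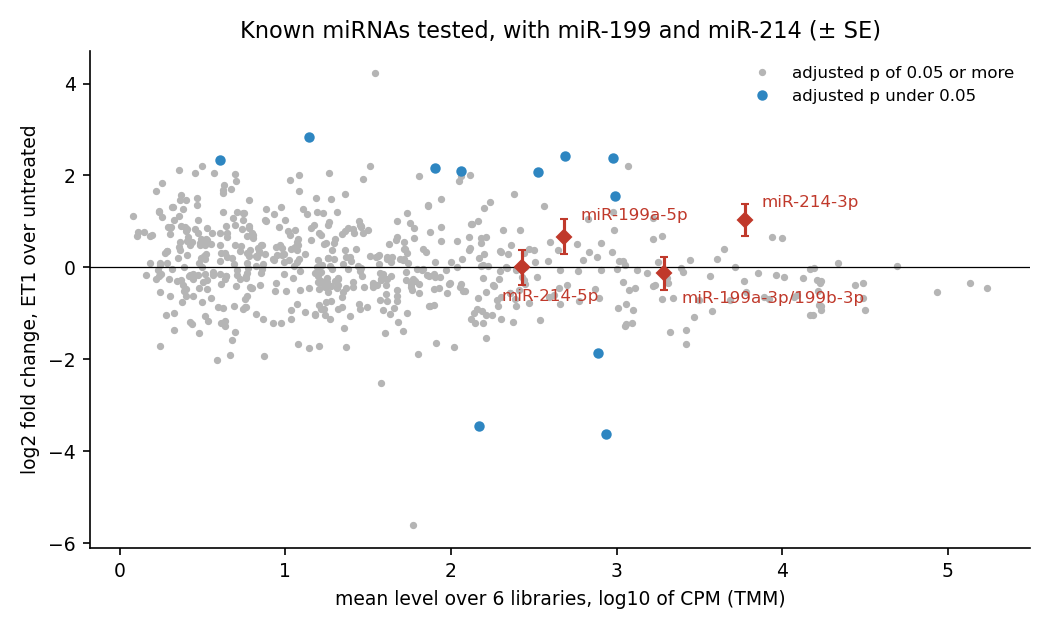
Log2 fold change of ET1 over untreated (y axis) against mean level over the 6 libraries (x axis, log10 of CPM after TMM scaling) for the 616 known miRNAs tested; red diamonds are the miR-199 and miR-214 rows ± SE, blue points passed an adjusted p of 0.05. miR-214-3p lies highest of the 4 red diamonds at 1.03 and none of the 4 is among the 11 that passed.

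Because both arms of miR-214 are cut from the same hairpin in the same library, their ratio does not depend on scaling. There were 27.9, 34.3 and 28.5 miR-214-3p tags per miR-214-5p tag in the ET1 libraries, against 11.6, 10.2 and 23.3 in the untreated libraries. The groups did not overlap, and untreated library 3 again lay nearest to ET1. On the log2 scale the ratio was 4.91 ± 0.16 with ET1 and 3.81 ± 0.64 untreated (SD, n = 3 each), a difference of 1.10 (SE 0.38) or 2.15-fold; the exact two-sided permutation p was 0.1, the smallest that 3 libraries against 3 allow, and 0.2 adjusted over 4 quantities. It was 0.87 without untreated library 2 and 1.47 without untreated library 3. In other terms, miR-214-5p made up 3.46%, 2.83% and 3.39% of miR-214 tags with ET1 and 7.91%, 8.97% and 4.12% untreated.

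For the arms of miR-199 the difference had the opposite sign, and the groups overlapped. There were 2.66, 3.24 and 3.86 tags of the joint 3p row per miR-199a-5p tag in ET1 libraries, against 5.16, 7.55 and 3.85 in untreated libraries. ET1 library 3 and untreated library 3 had nearly the same ratio, and the other untreated libraries were above all ET1 libraries. The log2 ratio was 1.69 ± 0.27 with ET1 and 2.41 ± 0.49 untreated (SD, n = 3 each), a difference of −0.72 (SE 0.32; exact two-sided permutation p = 0.2, adjusted 0.27), or −0.47 without untreated library 2. This ratio sums over Mir199a-1, Mir199a-2 and, for the 3p arm, Mir199b.

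**Figure D3:**
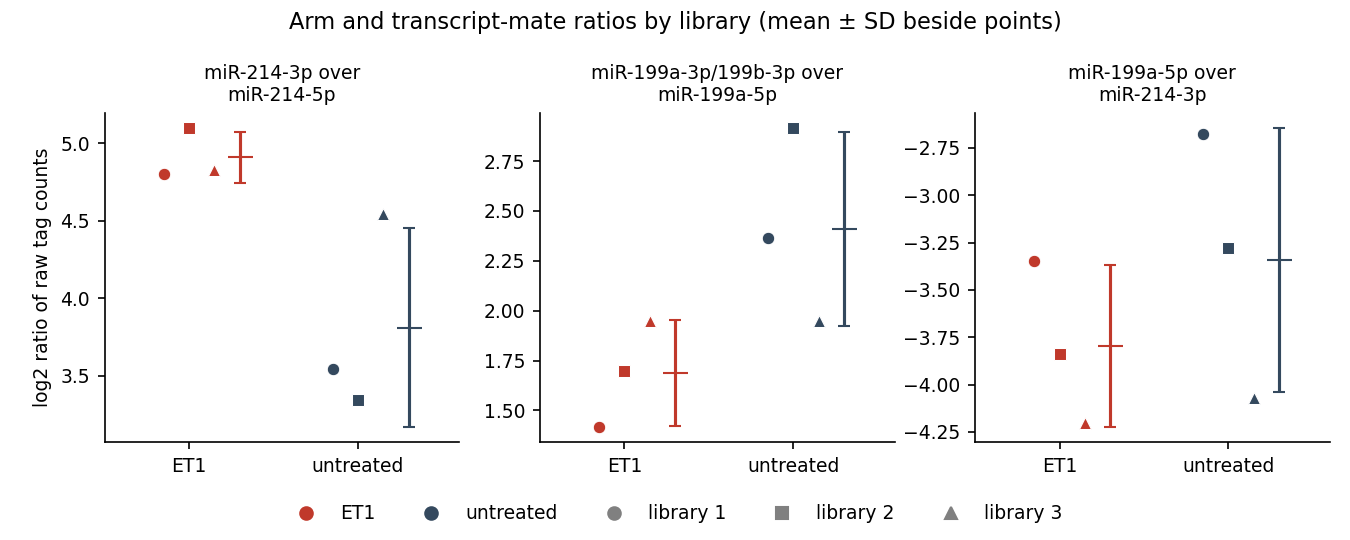
Log2 ratio of raw tag counts in each library for the arms of miR-214, the arms of miR-199 and the transcript mates miR-199a-5p and miR-214-3p (y axes do not start at 0); points are libraries, bars the mean ± SD of 3. The miR-214 arm ratio of the ET1 libraries, 4.80 to 5.10, lies above that of the untreated libraries, 3.34 to 4.54, while the groups overlap in the other panels.

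To read these arm ratios, the same ratio was taken for all 146 hairpins with both arms tested, as the more over the less abundant arm. The median difference, ET1 minus untreated, was −0.069, with quartiles of −0.53 and 0.44. The arm ratios of 18.5% of hairpins did not overlap between the groups, and those of 6.16% were higher in ET1 without overlap, miR-214 among these. By size the miR-214 difference ranked 17th of the 146 from the top and that of miR-199a 116th. Differences in arm ratio of this size thus occurred in other hairpins of these libraries.

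**Figure D4:**
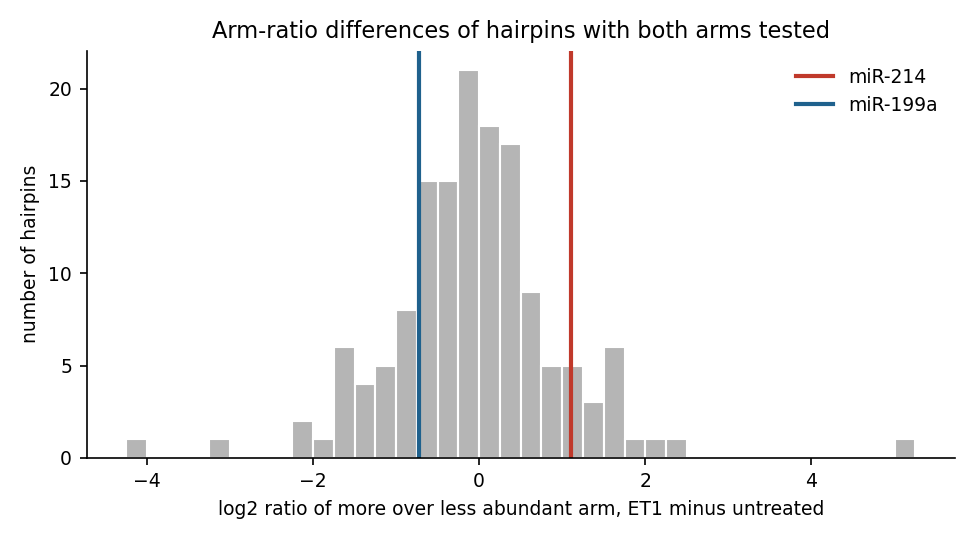
Number of hairpins (y axis) by the difference, ET1 minus untreated, of the log2 ratio of the more over the less abundant arm (x axis), for the 146 hairpins with both arms tested. The vertical lines mark miR-214 at 1.10 and miR-199a at −0.72, on either side of the median of −0.069.

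miR-199a-5p and miR-214-3p, which share the Dnm3os transcript, were compared directly. There were 0.0983, 0.0699 and 0.0543 miR-199a-5p tags per miR-214-3p tag with ET1 and 0.156, 0.103 and 0.0596 untreated. The groups overlapped, and the spread within each group was wide. The log2 ratio was −3.80 ± 0.43 with ET1 and −3.34 ± 0.70 untreated (SD, n = 3 each), a difference of −0.45 (SE 0.47; exact two-sided permutation p = 0.4, adjusted 0.4) that was −0.12 without untreated library 1 and −0.82 without untreated library 3.

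Together the 5 rows held 1.33%, 0.949% and 1.39% of known miRNA tags in the ET1 libraries, against 0.498%, 0.532% and 0.719% in the untreated libraries. The groups did not overlap (1.22% ± 0.24 with ET1 and 0.583% ± 0.119 untreated, n = 3 each; exact two-sided permutation p = 0.1, adjusted 0.2). Of all tags in a library they held 0.299% ± 0.074 with ET1 and 0.217% ± 0.025 untreated, where the groups overlapped (exact two-sided permutation p = 0.3). miR-214-3p supplied 71.6%, 75.4% and 77.0% of these tags in the ET1 libraries and 48.8%, 50.5% and 75.1% in the untreated libraries.

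Against the other miRNAs of stromal cells, miR-214-3p and miR-199a-5p lay at the upper end. Of 26 listed mesenchymal and stromal miRNAs, all tested, none rose and 1 fell; the log2 fold change was above 0 in 7 and below it in 19, and its median was −0.29, against 8 risen, 3 fallen and a median of 0.0058 over all 616. The member that fell was miR-10b-5p, a Hox cluster miRNA (333 ± 107 CPM with ET1, 1206 ± 328 CPM untreated; log2 fold change −1.85, SE 0.39, edgeR adjusted p = 0.026). The 3 most abundant were miR-181a-5p, at 27111 ± 6035 CPM with ET1 and 34340 ± 9458 CPM untreated (log2 fold change −0.34), miR-22-3p (−0.65) and miR-125b-5p (−0.30), none of which passed. In level, 9 of the 26 stood above miR-214-3p, 15 above the joint miR-199 3p row, 18 above miR-199a-5p and 19 above miR-214-5p.

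**Figure D5:**
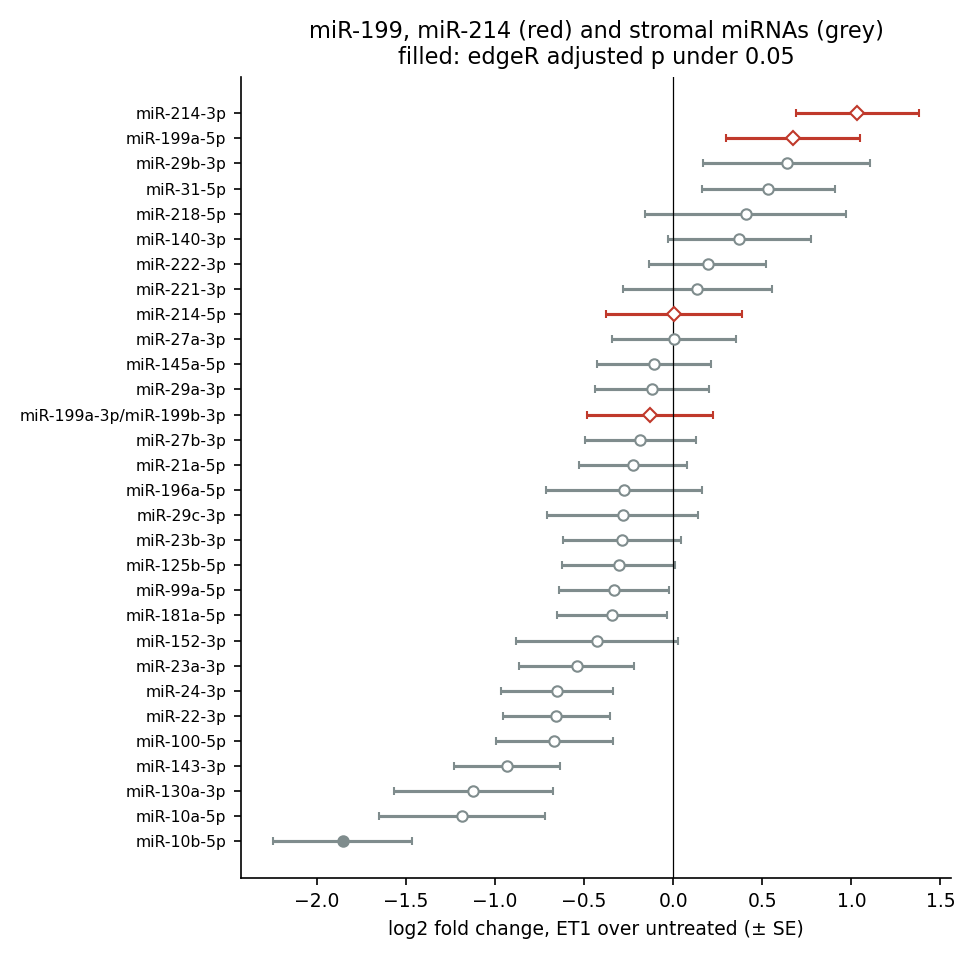
Log2 fold change of ET1 over untreated ± SE (x axis) for the 4 tested miR-199 and miR-214 rows (red diamonds) and 26 other stromal miRNAs (grey circles), ordered by value; a filled symbol has an adjusted p under 0.05. miR-214-3p at 1.03 and miR-199a-5p at 0.67 head the plot, and miR-10b-5p at −1.85 is the only filled symbol.

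Markers of other cells were summed beside the stromal list. The sums are given as ranges over the libraries of a group. They are descriptions only, with no share over all miRNAs to read them against. The stromal list summed to 145455 to 151679 CPM with ET1 and 188273 to 206666 CPM untreated. These stromal miRNAs were thus detected in both groups, while the germ cell marker miR-470-5p, at a mean of 49366 CPM over the 6 libraries, stood above each of them. The 8 epithelial miRNAs summed to 231 to 305 CPM with ET1 and 383 to 580 CPM untreated (0 of 8 passed), and the 2 arms of endothelial miR-126a to 114 to 163 CPM with ET1 and 1107 to 1884 CPM untreated (1 of 2 fell). The 4 leukocyte miRNAs summed to 36.4 to 40.6 CPM with ET1 and 236 to 324 CPM untreated (1 of 2 tested fell). The one that fell was miR-150-5p (log2 fold change −3.45, edgeR adjusted p = 0.00036). The other, miR-223-3p, had the opposite sign (0.29, edgeR adjusted p = 0.85). The 7 germ cell miRNAs summed to 42778 to 78046 CPM with ET1 and 36740 to 73418 CPM untreated (0 of 7 passed). Most of that sum was miR-470-5p, with means of 50028 CPM for ET1 and 48704 CPM untreated (log2 fold change 0.039). Over the 7, the log2 fold change was above 0 in 5 and below it in 2, with a median of 0.69. It was largest in miR-871-3p (2.20, edgeR adjusted p = 0.50) and miR-449a-5p (1.99, edgeR adjusted p = 0.086). The 2 gonadal arms of miR-202 summed to 621 to 1906 CPM with ET1 and 918 to 1390 CPM untreated (0 of 2 passed). The 3 red cell rows summed to 444 to 1323 CPM with ET1 and 143 to 916 CPM untreated (1 of 2 tested rose). The joint row of miR-486a-5p and miR-486b-5p rose (2.41, edgeR adjusted p = 0.024). In contrast, miR-451a stood at −0.56 (edgeR adjusted p = 0.87). None of these markers was at 0 in all libraries. Their part in the miR-214-3p difference, and that of the miRNA and rRNA shares, was not tested. The fit with the miRNA share cannot separate that share from ET1, because it did not overlap between the groups.

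By pattern over the 6 libraries, the miRNAs most like miR-199a-5p, of 182 others with a mean of at least 100 CPM, were miR-541-5p (Pearson r = 0.98) and miR-409-3p (0.96), then miR-871-3p (0.85), miR-31-5p (0.83) and miR-341-3p (0.83). Those most like miR-214-3p were miR-370-3p (0.93), the joint row of miR-486a-5p and miR-486b-5p (0.89), miR-667-3p (0.89), miR-324-5p (0.86) and miR-5126 (0.86). miR-214-3p ranked 17th in likeness to miR-199a-5p (0.58). Its own hairpin partner miR-214-5p was at 0.092 against it and ranked 71st, and the joint miR-199 3p row was at −0.42. The 6 points share their libraries, the depth and the group difference, and the values are descriptions.

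GC content differed among the arms: 59.1% in miR-214-3p, 54.5% in miR-214-5p, 52.2% in miR-199a-5p and 40.9% in miR-199a-3p. Over the 514 tested miRNAs with a RefSeq sequence, log2 fold change and GC content had a Spearman rho of 0.35. With a correction for GC content, an alternative chosen after seeing the data, the log2 fold change of miR-214-3p was 0.87 (edgeR adjusted p = 0.095), that of miR-199a-5p 0.72, that of the joint miR-199 3p row 0.099 and that of miR-214-5p −0.048.

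The authors' deposited table of pooled counts marked all 5 rows as up in ET1, as it did 76.8% of its 1800 rows. In the authors' deposited table the log2 ratio of ET1 over untreated was 1.43 for miR-214-3p, 1.02 for miR-199a-5p, 0.92 for miR-199b-5p, 0.36 for miR-214-5p and 0.20 for the joint 3p row. Taken directly from its pooled counts, the log2 ratio was 0.73 for miR-214-3p and −0.50 for the joint 3p row, 0.70 below the deposited ratio in each row of the authors' deposited table with both counts above 0. Its p-values rest on counts pooled over libraries and leave out how libraries of a group vary.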

How the data were processed

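Small RNA libraries of total RNA were made with a BGI protocol, per the labels' protocols. Per the submitters' processing notes, alignment involved Bowtie2 (no version) and mm10; how mismatches and multi-locus tags were handled is not given in the sources used here. Per the file headers, the authors deposited raw tag counts and a value headed TPM, which from the values is an RPM over all rows. A second table deposited by the authors, named for DEGseq, holds counts pooled per group, mean RPM, a log2 ratio, p-values and q-values.

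Counts of the 1573 known miRNA rows were tested here with edgeR 4.0.16 in R 4.3.3 (default expression filter, TMM, robust quasi-likelihood fit, group as the only term, two-sided, adjusted over 616 miRNAs); SE is the log2 fold change over the root of F. In simulated counts for this comparison over 616 miRNAs, 57.5% of 200 miRNAs changed by 2 on the log2 scale were recovered, with 1 false call. Ratios of raw counts, with 0.5 tag added to each, and shares were compared by exact permutation with SciPy 1.17.1. Within groups, any 2 libraries differed beyond counting noise (chi-square over its degrees of freedom 336 to 1212, rows with at least 10 tags), so none was taken for another deposited again; this does not show separate cultures. Alternatives were DESeq2 1.42.0, limma-voom (limma 3.58.1), other scalings, filters and row sets, a replicate block, a covariate, a GC correction and leaving out each library.

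Rows named were those of the rule, the 5 miRNAs most like miR-199a-5p and miR-214-3p, miRNAs that share a seed, and the 3 most abundant and any called stromal miRNAs. The members and lists were chosen with earlier results of these data known. Hairpin positions are from RefSeq GRCm38.p6, the assembly that mm10 names, and gene context from GENCODE M21.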

Additional observations from a re-analysis of the deposited data

How the results depend on the processing

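The positive log2 fold changes of miR-214-3p and miR-199a-5p kept their sign in all 15 alternatives. miR-214-3p passed in 2 of them, by library size alone (1.38) and without untreated library 3; it ran from 0.84 to 1.41 with 1 library left out and from 0.43 (miRNA share as a covariate) to 1.41 in all, and its edgeR, DESeq2 or limma adjusted p from 0.028 to 0.90. miR-199a-5p ran from 0.34 to 0.82 with 1 library left out and passed in none. The joint miR-199 3p row changed sign with library sizes alone (0.27), the miRNA share as a covariate (0.87) and the GC correction (0.099), and ran from −0.35 to 0.059 with 1 library left out. miR-214-5p, at 0.0063, changed sign in DESeq2 (−0.012), limma-voom (−0.01008), without a filter (−0.061), with all rows fitted together (−0.51), under the GC correction (−0.048) and with the replicate block (−0.0085), and ran from −0.14 to 0.17 with 1 library left out. The cause of these changes was not tested.

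The count of called miRNAs, 11, was 41 with library sizes alone, 37 without a filter, 39 in DESeq2 (24 higher and 15 lower) and 5 in limma-voom. It was 0 in edgeR with all rows fitted together, 0 in edgeR with the miRNA share as a covariate, and 2 to 30 with 1 library left out. At an unadjusted edgeR p under 0.05 the first 2 of these fits had 116 and 39 known miRNAs, against 113 in the main fit. With all rows fitted together, p was adjusted over every row that passed the filter, not over known miRNAs alone. With the replicate number as a block the count of called miRNAs was 21, with miR-214-3p at 1.09 (edgeR adjusted p = 0.067), miR-199a-5p at 0.63 and the joint 3p row at −0.088. Same-numbered libraries had correlated deviations of 0.28, 0.060 and 0.25, and every library correlated best with its own number. The labels do not say that the numbers pair libraries, so the block was kept as an alternative only.

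The arm and transcript-mate ratios differed by under 0.001 with 1 tag added in place of 0.5, and none changed sign with 1 library left out: 0.87 to 1.47 for the miR-214 arms, −0.96 to −0.47 for the miR-199 arms, −0.82 to −0.12 for the transcript mates, and 0.56 to 0.78 points for the share of known miRNA tags. miR-199b-5p had only 21 tags in the ET1 and 18 in the untreated libraries, and the reason was not tested.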
